A study of Drosophila melanogaster with 6 samples.

Results

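The genes described here are 8 axon guidance genes, the ligands sli, NetA and NetB and the receptors robo1, robo2, robo3, fra and unc-5, which were chosen by symbol, matched through their FlyBase identifiers, out of 17490 gene rows. All 8 were found and all 8 passed the filter on low counts. They were measured by RNA-seq in 3rd instar larval brains of Drosophila melanogaster. RNAi against DMAP1, which encodes a chromatin remodelling protein, was driven by elav-Gal4, whose promoter is active mainly in neurons. The labels hold 6 samples and give them 1 genotype, DMAP1 RNAi. The columns of the count table divide these libraries into 2 series of 3, DMAP1RNAi63666 and DMAP1RNAi103734, whose names are not explained by the labels. Both series carry the driver and RNAi against DMAP1. Wild-type controls are not analysed here, since no labelled sample matched the 3 remaining columns. Every value given is therefore a level under RNAi against DMAP1 or a difference between the RNAi series. Whether the RNAi lowered DMAP1 RNA in either series was not tested.

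Slit is a secreted protein that repels growing axons through the Robo receptors. In the fly nerve cord it is made by midline glia and keeps axons that have crossed the midline from crossing again. Netrins are secreted proteins that attract axons through Frazzled, the fly member of the DCC family, and repel them through Unc-5. In the larval brain these genes also take part in laying out tracts and in sorting axons of the visual system. Since brains were measured whole, fewer cells that express a gene and less RNA per cell cannot be told apart.

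Total counts per library lay between 31518485 and 37236953. The DMAP1RNAi63666 library 1 stood apart from the rest over all genes, with a chi-square per degree of freedom of 86.8 to 239 against each other library, where pairs of the other 5 gave 22.9 to 84.6, and it had the lowest TMM scaling factor (0.915). DMAP1 itself stood at 10.8, 12.2 and 11.9 TPM (a level scaled for gene length and library size) in the DMAP1RNAi63666 series, against 18.6, 19.7 and 17.0 TPM in the DMAP1RNAi103734 series. Its log2 fold change was -0.62 (SE 0.12, edgeR adjusted p = 0.0453), and 7 of 11 alternative settings ended that call. Neuronal markers (elav, nSyb, brp and Syt1) were present in every library, with a summed level of 1047 to 1378 TPM in the DMAP1RNAi63666 series and 859.8 to 1128 TPM in the DMAP1RNAi103734 series. The 6 glial markers (repo, Gs2, alrm, moody, wrapper and Eaat1) summed to 3568 to 4053 TPM in the DMAP1RNAi63666 series and 3448 to 3629 TPM in the DMAP1RNAi103734 series, and the 5 neuroblast markers (dpn, mira, wor, ase and insc) to 311 to 350.0 TPM in the DMAP1RNAi63666 series and 339.9 to 348 TPM in the DMAP1RNAi103734 series. These lists held no marker at 0 in any library. The DMAP1RNAi63666 library 1 had the highest neuronal sum (1378 TPM), and the DMAP1RNAi103734 library 2 the lowest (859.8 TPM) together with the highest fat body sum (Lsp1beta, Lsp1gamma, Lsp2 and Fbp1), 399 TPM against 27.7 to 120 TPM in the other libraries. Muscle markers (Mhc, Mlc2 and up) summed to 40.0 to 147 TPM in the DMAP1RNAi63666 series and 69.7 to 133 TPM in the DMAP1RNAi103734 series, hemocyte markers (Hml and NimC1) to 5.10 to 26.6 TPM in the DMAP1RNAi63666 series and 7.80 to 36.3 TPM in the DMAP1RNAi103734 series, and the matched ring gland markers (dib and sad) to 10.8 to 41.4 TPM in the DMAP1RNAi63666 series and 17.3 to 42.1 TPM in the DMAP1RNAi103734 series. Disc markers (vg, nub and Dll) summed to 34.4 to 40.8 TPM in the DMAP1RNAi63666 series and 31.8 to 35.6 TPM in the DMAP1RNAi103734 series, and the salivary gland gene Sgs3 was at 0 in 4 of 6 libraries and at most 0.0615 TPM.

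The Slit ligand sli (FBgn0264089, chromosome 2R, 15869495 to 15922118, minus strand, BDGP6) was among the most abundant of the 8 genes. It stood at 122, 137 and 157 TPM in the DMAP1RNAi63666 series, against 161, 158 and 152 TPM in the DMAP1RNAi103734 series. The DMAP1RNAi63666 libraries were more widely spread and the groups overlapped. The means were 139 ± 17.6 TPM in the DMAP1RNAi63666 series and 157 ± 4.43 TPM in the DMAP1RNAi103734 series (SD, n = 3 each), a log2 fold change of -0.13 (SE 0.10, 95% interval -0.37 to 0.10, edgeR adjusted p = 0.43). It was -0.09 without the DMAP1RNAi63666 library 1 and -0.20 with library totals as the only scaling.

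The Netrin genes lie next to each other on the minus strand of chromosome X, NetA (FBgn0015773) at 14604012 to 14653928 and NetB (FBgn0015774) at 14686038 to 14749376, with 32.1 kb and 1 annotated gene between them. Both encode secreted Netrins that act redundantly in guidance at the embryonic midline, yet their RNA levels in these brains were far apart. NetB stood at 175, 151 and 166 TPM in the DMAP1RNAi63666 series, against 149, 125 and 138 TPM in the DMAP1RNAi103734 series, so each DMAP1RNAi63666 library lay above each DMAP1RNAi103734 library. NetA, the least abundant of the 8, stood at 8.10, 9.47 and 11.4 TPM in the DMAP1RNAi63666 series, against 12.4, 14.9 and 13.8 TPM in the DMAP1RNAi103734 series, and here each DMAP1RNAi63666 library lay below each DMAP1RNAi103734 library. NetA was supported by 354 to 760 counts per library, and NetB by 15612 to 21360. The log2 fold change was 0.30 for NetB (SE 0.11, 95% interval 0.04 to 0.56, edgeR adjusted p = 0.162) and -0.47 for NetA (SE 0.13, 95% interval -0.77 to -0.17, edgeR adjusted p = 0.117). Neither passed the threshold of 0.05 over all genes tested.

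**Figure D1:**
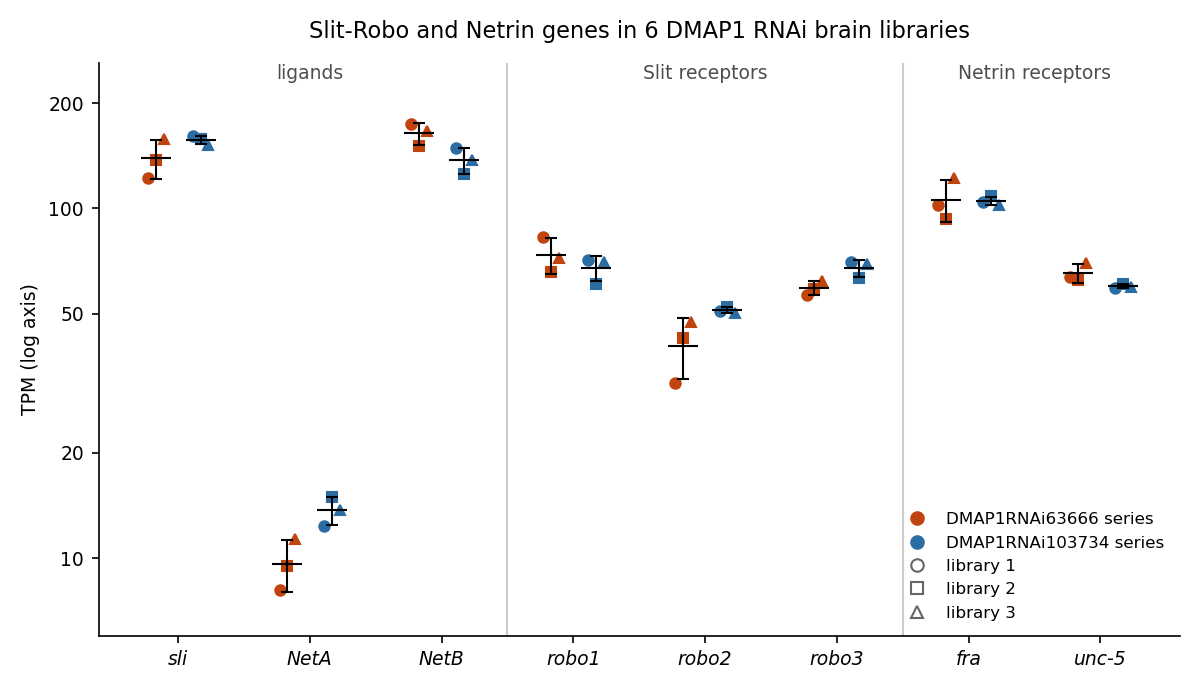
TPM of each gene in every library on a log axis, ligands at the left, Slit receptors in the middle and Netrin receptors at the right, with the DMAP1RNAi63666 series left of the DMAP1RNAi103734 series; points are libraries, the horizontal mark is the mean of 3 and the bar 1 SD. NetB lies between 125 and 175 TPM and NetA between 8.10 and 14.9 TPM, and the series are apart for both in opposite directions.

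Among the Slit receptors, robo1 (FBgn0005631, chromosome 2R, 22692524 to 22700970, minus strand) is the founding member, which mediates midline repulsion in the fly embryo. It stood at 82.9, 65.8 and 71.9 TPM in the DMAP1RNAi63666 series, against 71.1, 61.0 and 70.2 TPM in the DMAP1RNAi103734 series. The groups overlapped, and the highest value was that of the DMAP1RNAi63666 library 1. The log2 fold change was 0.17 (SE 0.12, 95% interval -0.11 to 0.45, edgeR adjusted p = 0.398), and it was 0.04 without that library, 0.11 without the DMAP1RNAi103734 library 2 and 0.09 with library totals only.

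The other Robo genes, robo2 and robo3, are known in the fly nerve cord for setting how far from the midline an axon tract runs, and robo2 also for promoting midline crossing. They lie 83.5 kb apart on chromosome 2L, robo2 (FBgn0002543) at 1380086 to 1420453 on the minus strand and robo3 (FBgn0041097) at 1256417 to 1296596 on the plus strand, with 15 annotated genes between them. The receptor robo2 stood at 31.6, 42.6 and 47.4 TPM in the DMAP1RNAi63666 series, against 51.0, 52.1 and 50.1 TPM in the DMAP1RNAi103734 series. The DMAP1RNAi63666 libraries all lay below the DMAP1RNAi103734 libraries, with library 1 lowest by a wide gap, while the DMAP1RNAi103734 libraries were close together. The log2 fold change of robo2 was -0.30 (SE 0.12, 95% interval -0.58 to -0.02, edgeR adjusted p = 0.185), and it was -0.18 without the DMAP1RNAi63666 library 1. The receptor robo3 stood at 56.6, 58.7 and 62.1 TPM in the DMAP1RNAi63666 series, against 70.1, 63.1 and 69.4 TPM in the DMAP1RNAi103734 series. Its groups did not overlap either, with a log2 fold change of -0.15 (SE 0.08, 95% interval -0.33 to 0.03, edgeR adjusted p = 0.277). Exons of robo2 overlap lncRNA:CR44898 on the same strand, which had 0 counts in all 6 libraries. Reads shared by overlapping genes on one strand were not counted for either. The exons of robo3 add up to 7413 bases in the annotation behind the counts and to 7118 bases in the later release used for names. Reads were not recounted on the later release, so the effect on its TPM was not tested.

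Of the Netrin receptors, fra (FBgn0011592, chromosome 2R, 12529053 to 12564184, plus strand), the attractive receptor, stood at 102, 93.4 and 122 TPM in the DMAP1RNAi63666 series, against 104, 108 and 102 TPM in the DMAP1RNAi103734 series. Its DMAP1RNAi63666 libraries lay on both sides of the DMAP1RNAi103734 libraries. The log2 fold change was 0.05 (SE 0.11, 95% interval -0.19 to 0.29, edgeR adjusted p = 0.79), and its sign turned with library totals as the only scaling (-0.021) or without the DMAP1RNAi63666 library 3 (-0.029). The repulsive receptor unc-5 (FBgn0034013, chromosome 2R, 15340472 to 15368300, plus strand) stood at 63.6, 62.3 and 69.9 TPM in the DMAP1RNAi63666 series, against 59.4, 60.8 and 59.4 TPM in the DMAP1RNAi103734 series. Each DMAP1RNAi63666 library lay above each DMAP1RNAi103734 library, by a small margin. The log2 fold change was 0.17 (SE 0.08, 95% interval -0.01 to 0.34, edgeR adjusted p = 0.223), and it was 0.09 with library totals only.

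Together the 8 genes show no difference between the RNAi series that passed the test. None of the 8 had an edgeR adjusted p under 0.05, against 1.55% of the 10211 genes tested (158 genes, of which 89, or 0.872%, were higher and 69, or 0.676%, lower in the DMAP1RNAi63666 series). An unadjusted p under 0.05 was reached by 3 of 8 (NetA, NetB and robo2), where 24.6% of all genes tested reached it. The series did not overlap in scaled CPM for 5 of 8 (NetB and unc-5 higher, NetA, robo2 and robo3 lower in the DMAP1RNAi63666 series), against 33.5% of all genes tested. DESeq2, which called 9.29% of the 10349 genes to which it gave an adjusted p, called NetA (log2 fold change -0.47, DESeq2 adjusted p = 0.0358) and none of the other 7. The median log2 fold change was -0.04 over the 8 genes and 0.00 over all genes tested. The lowest end of the 95% intervals was -0.77, for NetA, and the highest 0.56, for NetB. Each interval was computed for its gene alone and is not adjusted, so they do not bound all 8 differences together.

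**Figure D2:**
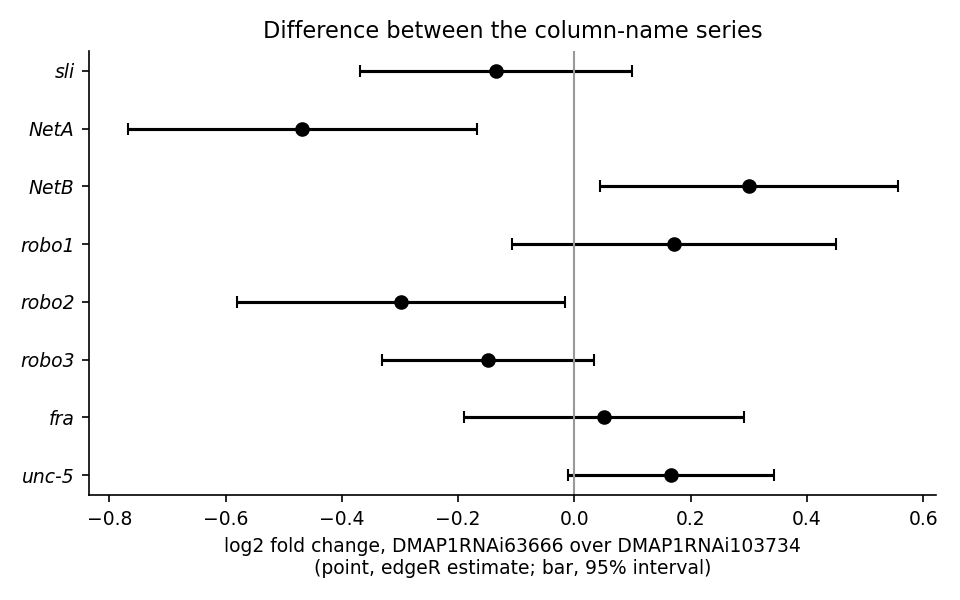
Log2 fold change of each gene, DMAP1RNAi63666 over DMAP1RNAi103734 series, with the edgeR estimate as a point and its 95% interval as a bar. The intervals of NetA, NetB and robo2 lie to one side of 0 before adjustment over all genes, and those of the other 5 genes cross it.

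The genes differed in how much they varied among the libraries. The SD of log2 CPM (counts scaled by library size with TMM factors) over 6 libraries was 0.30 for NetA, 0.23 for robo2, 0.20 for NetB and 0.17 for robo1, and 0.09 to 0.11 for robo3, unc-5, sli and fra, where the median gene had 0.21. The deviations were largest in a pair of libraries for several genes. In the DMAP1RNAi63666 library 1, NetA and robo2 stood at -0.41 and -0.44 log2 units from their means over the libraries, and NetB and robo1 at 0.30 and 0.32. In the DMAP1RNAi103734 library 2 the same genes deviated the other way, NetA and robo2 by 0.38 and 0.20 and NetB and robo1 by -0.26 and -0.21. These are the libraries with the highest and the lowest summed neuronal markers (1378 and 859.8 TPM), and also with the highest and the lowest summed glial markers (4053 and 3448 TPM). The largest part of the glial sum was Gs2 (2370.5 and 2136.2 TPM), and alrm, moody and Eaat1 were also higher in the first. The glial markers repo (42.9 and 59.5 TPM) and wrapper (185 and 221 TPM) went the other way, so the sum is no measure of glial content. The DMAP1RNAi103734 library 2 also had the highest fat body sum (399 TPM). All 4 neuronal markers had a positive log2 fold change (0.33 for elav, 0.27 for nSyb, 0.24 for brp and 0.15 for Syt1) of which none passed the edgeR test (adjusted p = 0.157 to 0.616). Of the 6 glial markers, 5 were higher (up to 0.38, for alrm) and 1 lower (repo, -0.16). Of the 5 neuroblast markers, 2 were higher (up to 0.30, for ase) and 3 lower (down to -0.39, for mira). No glial or neuroblast marker passed the edgeR test either. The part of these cell types in the deviations was not tested.

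**Figure D3:**
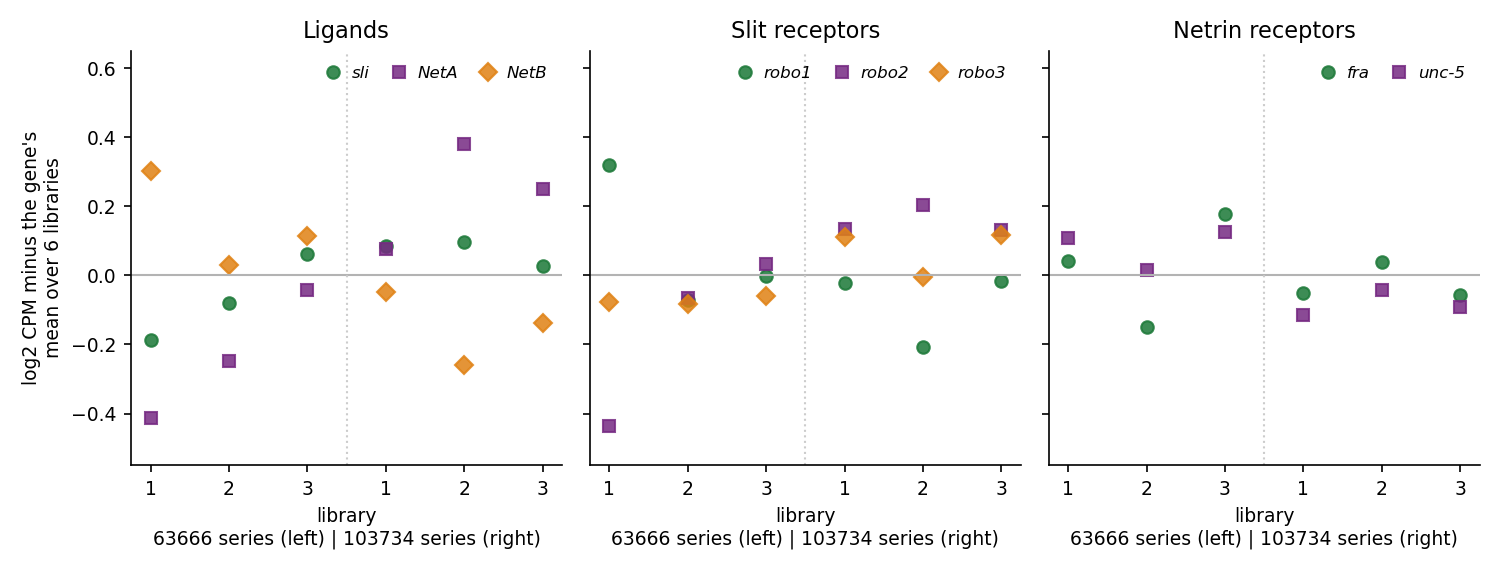
Deviation of each gene from its own mean over the 6 libraries, in log2 CPM, with the DMAP1RNAi63666 libraries left of the dotted line and the DMAP1RNAi103734 libraries right of it. NetB and robo1 are highest in the DMAP1RNAi63666 library 1 (0.30 and 0.32), where NetA and robo2 are lowest (-0.41 and -0.44).

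Ranked by mean TPM over 6 libraries, the order was NetB (151 ± 18.0, SD, n = 6), sli (148 ± 15.1), fra (105 ± 9.41), robo1 (70.5 ± 7.32), robo3 (63.3 ± 5.47), unc-5 (62.6 ± 3.96), robo2 (45.8 ± 7.76) and NetA (11.7 ± 2.57). NetB and sli exceeded the mean TPM of 90.6% and 90.5% of the 10211 genes tested, and NetA that of 28.4%. Of the 7 neighbouring pairs in this order, 4 kept it in all 6 libraries, namely sli over fra, fra over robo1, unc-5 over robo2 and robo2 over NetA. For the remaining pairs the mean log2 difference was smaller than its SD over 6 libraries, an SD that includes any difference between the series. The log2 differences of these pairs were 0.02 ± 0.29 for NetB over sli, 0.15 ± 0.22 for robo1 over robo3 and 0.02 ± 0.19 for robo3 over unc-5 (SD, n = 6). The place of some of these genes depended on the series. NetB lay above sli in 3 of 3 libraries of the DMAP1RNAi63666 series and in 0 of 3 of the DMAP1RNAi103734 series, and robo3 lay above unc-5 in 0 of 3 libraries of the DMAP1RNAi63666 series and in 3 of 3 of the DMAP1RNAi103734 series.

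Ratios within a library do not depend on its depth, and the balance of NetB to NetA differed most. NetB exceeded NetA by 21.6, 15.9 and 14.6 times in TPM in the DMAP1RNAi63666 series, against 12.02, 8.41 and 10.02 times in the DMAP1RNAi103734 series. The means were 17.4 ± 3.69 in the DMAP1RNAi63666 series and 10.2 ± 1.81 in the DMAP1RNAi103734 series (SD, n = 3 each), and the groups did not overlap. That follows from the separation of NetB and NetA in opposite directions given above, so it is not a further result. Of all single genes tested, 33.5% did not overlap between the series, and the share among ratios of genes was not computed. The log2 difference of 0.77, or 1.71-fold, had an exact two-sided permutation p of 0.1 over the 3 and 3 libraries, the smallest this design allows, and 0.15 after adjustment over the 6 ratios compared. These 6 ratios include the Robo shares, which depend on each other. Without 1 library the log2 difference of NetB over NetA lay between 0.60 and 0.90. The fold of each Netrin gene by itself failed the edgeR test.

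The make-up of the Robo receptors was also apart between the series, by less. The gene robo1 made up 48.4, 39.4 and 39.6% of the summed Robo TPM in the DMAP1RNAi63666 series, against 37.0, 34.6 and 37.0% in the DMAP1RNAi103734 series. The share of robo2 was 18.5, 25.5 and 26.1% in the DMAP1RNAi63666 series, against 26.5, 29.6 and 26.4% in the DMAP1RNAi103734 series, and that of robo3 was 33.1, 35.1 and 34.2% in the DMAP1RNAi63666 series, against 36.5, 35.8 and 36.6% in the DMAP1RNAi103734 series. None of the 3 shares overlapped between the series, each with the smallest exact permutation p the design allows (0.1, adjusted 0.15). The shares are parts of the same sum, so they are not 3 separate results. Of all single genes tested, 33.5% did not overlap between the series, and no such percentage was computed for shares of a sum. The distance was largest in the DMAP1RNAi63666 library 1, and without it the log2 difference of the robo2 share was -0.09 in place of -0.25 and that of the robo1 share 0.13 in place of 0.22. The summed Robo level itself was 171, 167 and 181 TPM in the DMAP1RNAi63666 series, against 192, 176 and 190 TPM in the DMAP1RNAi103734 series.

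The ratio of attractive to repulsive Netrin receptor, fra over unc-5, was 1.61, 1.50 and 1.74 in the DMAP1RNAi63666 series, against 1.76, 1.78 and 1.72 in the DMAP1RNAi103734 series (log2 difference -0.12, exact permutation p = 0.2, adjusted 0.24), and the log2 difference was -0.07 without the DMAP1RNAi63666 library 2. The ratio of sli to the summed Robo receptors was 0.715, 0.821 and 0.868 in the DMAP1RNAi63666 series, against 0.836, 0.896 and 0.801 in the DMAP1RNAi103734 series (log2 difference -0.08, exact permutation p = 0.5, adjusted 0.5). Both ratios overlapped between the series.

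**Figure D4:**
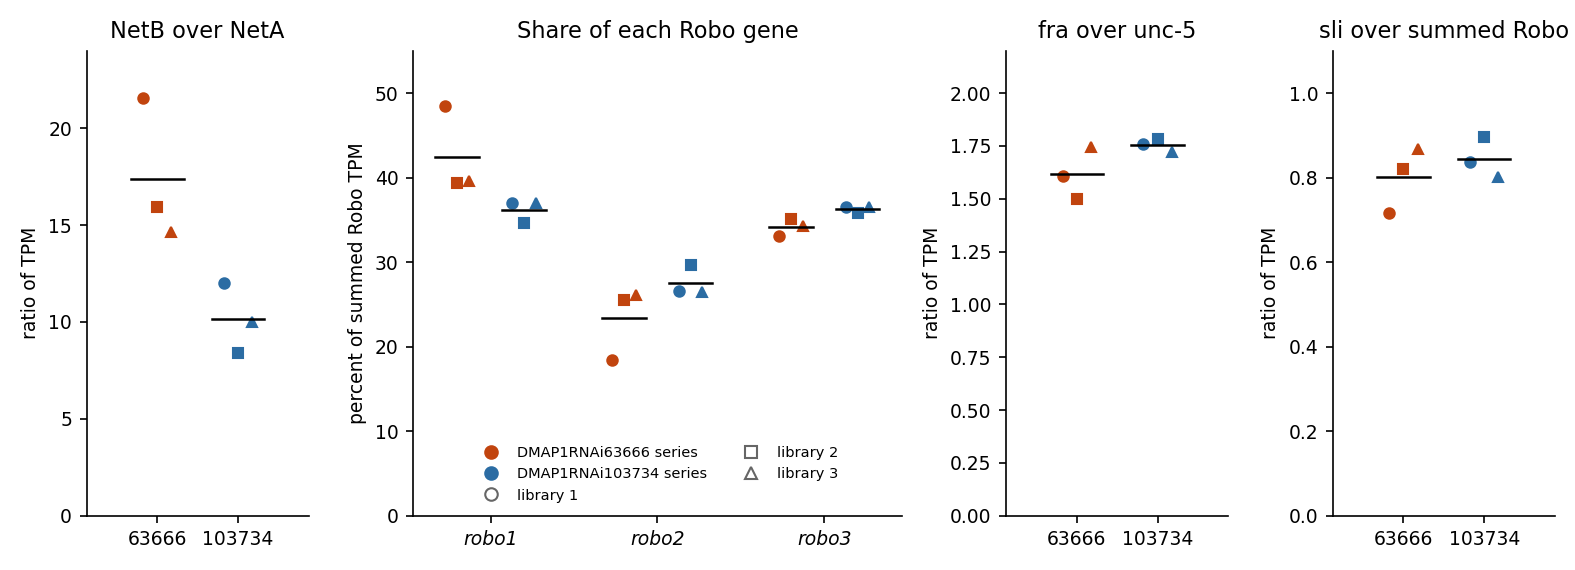
Ratios of TPM within each library, with the DMAP1RNAi63666 series left of the DMAP1RNAi103734 series in every panel; points are libraries and lines the means of 3. NetB over NetA is 14.6 to 21.6 in the DMAP1RNAi63666 series and 8.41 to 12.02 in the DMAP1RNAi103734 series, the Robo shares separate by less, and fra over unc-5 and sli over summed Robo overlap.

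Partners of these ligands and receptors were grouped in 3 lists, and none of their 33 genes passed the edgeR test between the series. Of the 8 extracellular and trafficking partners, 0 were called by edgeR, 0 by DESeq2 and 0 had an unadjusted p under 0.05, and the median of their log2 fold changes was 0.00. The most abundant were Sdc, the syndecan that acts as a Slit co-receptor, at 400.1, 322 and 337 TPM in the DMAP1RNAi63666 series against 322, 277 and 296 TPM in the DMAP1RNAi103734 series, and the glypican dlp at 67.0, 64.1 and 73.6 TPM in the DMAP1RNAi63666 series against 72.0, 63.4 and 69.8 TPM in the DMAP1RNAi103734 series. Sdc had the list's largest difference (log2 fold change 0.29, SE 0.13, edgeR adjusted p = 0.207), followed by comm3 (-0.20, SE 0.26, edgeR adjusted p = 0.651), a relative of the sorting receptor gene comm. The value for Sdc was 0.15 without the DMAP1RNAi63666 library 1. That for comm3, at a level of 1.12 to 1.71 TPM, lay between -0.30 (without the DMAP1RNAi63666 library 2) and -0.08 (without the DMAP1RNAi103734 library 3), and was -0.10 without the DMAP1RNAi63666 library 3. The gene comm, which in the fly embryo keeps Robo off the growth cone until axons have crossed, stood at 30.2, 32.7 and 32.5 TPM in the DMAP1RNAi63666 series, against 36.3, 33.5 and 37.7 TPM in the DMAP1RNAi103734 series (edgeR adjusted p = 0.339).

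Among 17 cytoplasmic effectors, 0 were called by edgeR, 4 had an unadjusted p under 0.05 (Mtl and chic among the 3 with higher estimates, capt the 1 with a lower estimate), near the 24.6% of all genes tested, and the median log2 fold change was 0.09. The series did not overlap for 7 of 17 in the higher direction and 1 of 17 in the lower, where 17% and 16.5% of all genes tested did not. The gene capt, which encodes an actin-binding, cyclase-associated protein, stood at 62.4, 72.9 and 82.6 TPM in the DMAP1RNAi63666 series, against 96.3, 105 and 99.1 TPM in the DMAP1RNAi103734 series. All its DMAP1RNAi63666 libraries were lower, with a log2 fold change of -0.43 (SE 0.10, edgeR adjusted p = 0.0809). The profilin gene chic, among the most abundant effectors, stood at 1186, 1031 and 1154 TPM in the DMAP1RNAi63666 series, against 960.4, 994 and 922 TPM in the DMAP1RNAi103734 series. All its DMAP1RNAi63666 libraries were higher, with a log2 fold change of 0.27 (SE 0.11, edgeR adjusted p = 0.185). DESeq2 called 2 of the 17, 1 higher and 1 lower, where it called 9.29% of all genes with an adjusted p, and the lower one was capt (DESeq2 adjusted p = 0.00554).

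Of 8 transcription factors known in the fly to regulate guidance genes, 0 were called by edgeR, 0 by DESeq2 and 0 had an unadjusted p under 0.05, and the median of their log2 fold changes was -0.05. The most abundant, lola, stood at 103, 115 and 117 TPM in the DMAP1RNAi63666 series, against 119, 112 and 115 TPM in the DMAP1RNAi103734 series, and zfh1 at 35.8, 32.6 and 34.3 TPM in the DMAP1RNAi63666 series against 36.6, 31.2 and 32.9 TPM in the DMAP1RNAi103734 series. The motor neuron factor exex and the homeodomain gene eve had the largest estimates, -0.29 (SE 0.15, edgeR adjusted p = 0.246) and -0.26 (SE 0.36, edgeR adjusted p = 0.685). The gene sim, the regulator of midline cell fate, stood at a low 3.17 to 4.74 TPM in the DMAP1RNAi63666 series and 3.87 to 5.14 TPM in the DMAP1RNAi103734 series. Its list of midline glia markers, sim and wrapper, summed to 188 to 277 TPM in the DMAP1RNAi63666 series and 181 to 226 TPM in the DMAP1RNAi103734 series, and neither gene was called. Nearly all of that sum was wrapper (185, 193 and 272 TPM in the DMAP1RNAi63666 series, against 177, 221 and 178 TPM in the DMAP1RNAi103734 series). Since wrapper is also on the glial list, the sum is close to the level of 1 gene and is no measure of midline glia.

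**Figure D5:**
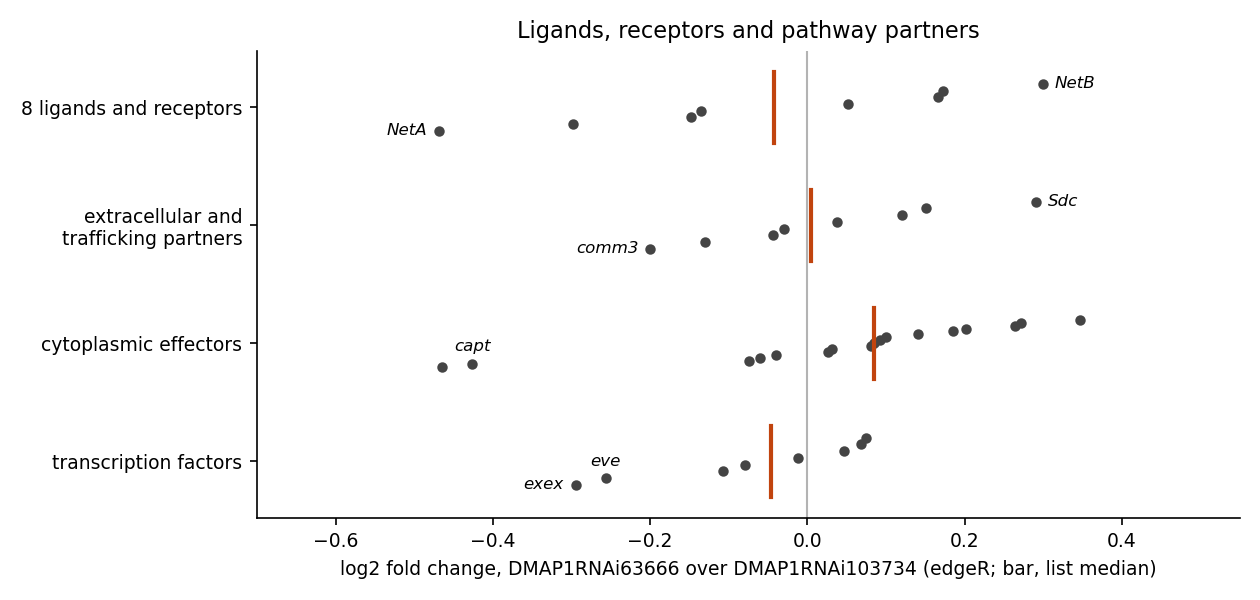
Log2 fold change, DMAP1RNAi63666 over DMAP1RNAi103734 series, of the 8 ligands and receptors and of the partner genes in 3 lists; each point is a gene and each bar the median of its list. The medians lie between -0.05 and 0.09, and single genes between -0.47 and 0.35.

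The genes with the most similar pattern over the 6 libraries were sought for NetA and robo2, the members with the largest spread, among 10210 genes by the root mean square distance of mean-centred log2 CPM. Those closest to NetA were l(2)k09913, HisRS and capt, each at a distance of 0.055 log2 units, against a median of 0.33 over all genes. Those closest to robo2 were Tsc1, Exd2 and Karybeta3, at 0.023, 0.024 and 0.027, against a median of 0.28. As the smallest of 10210 distances over 6 libraries, these values lie below the median by the way they were chosen. Shared regulation was not tested.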

How the data were processed

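The table holds raw counts of read pairs per gene, which the authors made with featureCounts 1.6.5 on BDGP6 release 84 with strand option 2, per the file headers, leaving out reads that map to several places or genes. Exon length in bases is given in the same deposited table. A folder named for HISAT2 holds the alignments, per the file headers. The submitters' processing notes name DESeq2 with no role. The libraries were TruSeq libraries of polyA RNA, per the labels' protocols.

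CPM and TPM were computed from the counts. Each column shows the genotype but not which labelled sample it is, and 3 further per-sample columns matched no sample and were not used. Series were compared with the quasi-likelihood test of edgeR 4.0.16 on 10211 genes kept by its filter (minimum count 10), with TMM scaling and Benjamini-Hochberg adjustment over all genes tested, and DESeq2 1.42.0 was an alternative. The procedure was tested on simulated data. Names came from Ensembl release 115, 17216 by identifier and 215 by exon overlap of at least 0.8. The ring gland marker phm could not be matched.

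The members and lists were chosen with earlier results of these data known. Named partners are the 2 most abundant and the 2 with the largest fold change in each list, and any called, less 2 effectors not reported here. Others (comm, sim and Mtl) were chosen after their values were seen. Since the labels do not tie samples to different animals or crosses, the p-values cover the spread between libraries alone, which may be technical. Every pair of libraries differed by more than sampling noise.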

Additional observations from a re-analysis of the deposited data

Results flagged for a closer look

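The share of robo2 in the summed Robo TPM is listed because 1 library stood far from the others. In the DMAP1RNAi63666 library 1 it was 18.5%, against 25.5 and 26.1% in the other DMAP1RNAi63666 libraries and 26.4 to 29.6% in the DMAP1RNAi103734 series. On the log2 scale the gap to the nearest library was 0.683 of the whole range, above Dixon's 95% critical value for 6 libraries. None of the other 13 quantities examined in this way (8 genes and 5 ratios) passed that value, which about 1 group in 20 passes by chance.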

How the results depend on the processing

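Of 88 recomputed fold changes of the 8 genes (11 alternatives each), 85 kept their direction and their side of the threshold. The exceptions were NetA with DESeq2 (-0.47, past the threshold, DESeq2 adjusted p = 0.0358) and fra, whose sign turned with library totals only (-0.021) and without the DMAP1RNAi63666 library 3 (-0.029). Without 1 library, fra ranged from -0.029 to 0.13. The number of the 8 genes called was 0 under every edgeR setting and 1 with DESeq2, and that of cytoplasmic effectors 0 and 2. Over all genes, 158 calls became 961 with DESeq2, 278 with the replicate block and 69 to 457 without 1 library (75, 83 and 69 without DMAP1RNAi103734 library 1, 2 or 3, and 457 without DMAP1RNAi63666 library 2). The block used the numbers in the column names. Libraries with the same number had deviations correlated at 0.24, -0.21 and -0.26. Whether such libraries share more than the number was not tested. The block called 0 of the 8 genes. The log2 difference between the series in the ratio of sli to summed Robo turned to 0.0019 without the DMAP1RNAi63666 library 1 (range -0.14 to 0.0019 without 1 library). Partners whose sign turned were dlp (-0.034 with library totals only, and -0.0065 to 0.083 without 1 library, the first without DMAP1RNAi103734 library 2), eve (-0.53 to 0.031, the last without DMAP1RNAi63666 library 3), lola (-0.031 to 0.0072, above 0 without library 1 of either series) and zfh1 (-0.00054 with library totals only). The cause was not tested. Library totals only moved the median fold change of all genes to -0.07. In rank, NetB and sli changed places with CPM and without DMAP1RNAi63666 library 1, and robo3 and unc-5 without DMAP1RNAi103734 library 1 or 3.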
